A study of Homo sapiens with 9 samples.

Results

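The 10 genes described here encode amino acid transporters of the plasma membrane. They are SLC7A5, SLC3A2, SLC7A11, SLC7A1, SLC1A5, SLC1A4, SLC38A1, SLC38A2, SLC38A5 and SLC6A9. They were taken by name from the 58735 genes of a count table, with earlier results of these data known. All 10 were found in it by matching gene identifiers to symbols. RNA sequencing was carried out on 786-0 cells, a renal carcinoma line that lacks functional VHL and HIF1α, so that HIF2α is present without hypoxia. The series asked how blocking HIF2α with a drug compares with removing it. The 3 groups were wild-type cells without drug (786-0 WT control), 786-0 WT cells exposed over 48 h to PT2385, an antagonist of HIF2α, at 10 μM, and a HIF2a knockout of the line (KO), also without drug. Every group was kept for 48 h at 21% O2 in DMEM with 5 mM glucose and 10% FBS, and every group had 3 replicates. How the knockout was made, whether it is 1 clone, and whether controls received vehicle are not given in the sources used here. Nothing says that the replicates were separate cultures, so p-values measure the spread between these samples, which may be technical. Total counts ran from 11881000 to 12296841 in control, from 12209143 to 14318384 upon PT2385 treatment and from 12893484 to 14730081 in KO. Within every group each pair of replicates differed by more than counting noise.

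EPAS1 (ENSG00000116016), which encodes HIF2α, served as a check of the knockout label. Its normalised counts per 1e6 (CPM) were 271, 264 and 232 in control replicates 1, 2 and 3, 247, 247 and 220.4 upon PT2385 treatment, and 20.2, 25.1 and 21.0 in KO. All 3 KO libraries lay far below the others (log2 fold change against control -3.52, edgeR adjusted p = 2.15e-09), and the PT2385 libraries overlapped the control. Of 8 genes fixed as markers of a renal carcinoma line, 7 had at least 10 CPM in all 9 libraries, among them the kidney factor PAX8 and the intermediate filament genes VIM, KRT8 and KRT18. Of these 7, 1 was called lower and 2 higher upon PT2385 treatment, and 2 lower and 2 higher in KO against control. These are 42.9% and 57.1%, beside 7.7% and 30.1% of all tested genes. From control to PT2385 to KO, PAX2 averaged 34.2, 25.3 and 13.7 CPM and KRT18 161, 223 and 289 CPM. Whether this relates to the transporters was not tested. CA9 was at 0 counts throughout. Of 11 markers of leukocytes, endothelium, red cells, liver, fibroblasts and pericytes, 9 never exceeded 2 counts in a library, and 4 of these, CD3E, PECAM1, VWF and HBB, were at 0 in all 9. The remaining pair, COL1A1 and PDGFRB, was detected at low levels. The summed level of the 11 markers was 8.06, 8.97 and 7.08 CPM in control, 8.84, 10.5 and 8.45 CPM upon PT2385 treatment and 2.31, 3.14 and 3.29 CPM in KO, with COL1A1 the most abundant. COL1A1 and PDGFRB were lower in KO than in control (log2 fold changes -1.10 and -4.50, edgeR adjusted p = 0.00346 and 4.57e-05). PDGFRB had 27, 31 and 28 counts in control and 2, 2 and 0 in KO. It passed the filter on low counts only through the control, where it is high, so its p-value is no independent support. Whether the lower COL1A1 and PDGFRB have a part in the transporter differences was not tested.

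Cells take up amino acids through carriers that differ in substrate and in driving force. SLC7A5 (LAT1) and its heavy chain SLC3A2 (4F2hc) form the exchanger that brings in leucine and other large neutral amino acids, and the same heavy chain carries SLC7A11 (xCT), which exchanges glutamate for cystine. SLC1A5, SLC1A4 and the SLC38 family move glutamine and small neutral amino acids with sodium, SLC7A1 moves arginine and lysine, and SLC6A9 moves glycine. SLC7A5 has been described as a HIF2α target in VHL-deficient renal cells, and several of the carriers belong to the programme that ATF4 switches on when amino acids run short.

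SLC7A5, SLC3A2, SLC7A1 and SLC38A1 were called lower than control both with PT2385 and in KO, and SLC7A5 changed most among the well-expressed transporters. Upon PT2385 treatment 6 of the 10 were down-regulated and 0 were up-regulated (edgeR, adjusted p under 0.05), where 7.7% of the 15089 tested genes were differentially expressed, 4.62% lower and 3.08% higher. The 6 include SLC38A5, which was tested only through its level in control, and 5 were called with at least 10 counts required in every library, as in DESeq2. Only SLC7A5, SLC3A2 and SLC38A1 were left, 3 of the 10, without control replicate 1, control replicate 2 or PT2385 replicate 2, and 3 to 6 were called over all single libraries left out. In KO 5 of the 10 were lower than in control and 0 were higher, where 30.1% of 15192 genes differed, 15.4% lower and 14.7% higher. DESeq2 called 7 there, as did edgeR with all 9 libraries in 1 model, adding SLC1A4 and SLC6A9 as lower. Over all genes these fits called 3972 of 15192 and 4595 of 15655. The PT2385 and KO groups were compared with the same control libraries, so the test of whether their effects differ is the direct comparison of KO with PT2385. In it 9 of the 10 were tested, 4 were lower in KO and 1 was higher, where 18.8% of 15402 genes differed, 10.3% lower and 8.47% higher. At an unadjusted p under 0.05, 8, 8 and 6 of the tested members passed in these comparisons. The counts of members are read beside these shares only, as the genes were chosen with results of these data known. With 3 against 3 samples an exact permutation test of a single gene cannot give a p under 0.1. In the same order, 7, 6 and 5 of the tested transporters had groups that did not overlap, against 25.9%, 44% and 35.1% of all tested genes. The 7 and the 6 also include SLC38A5, which was tested only through its level in control. Replicates with the same number deviated together between control and PT2385, and with the replicate number as a block 2305 genes were called in that comparison in place of 1162, and 9 transporters in place of 6. Of these 9, 8 were lower and 1, SLC7A11, was higher.

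**Figure D1:**
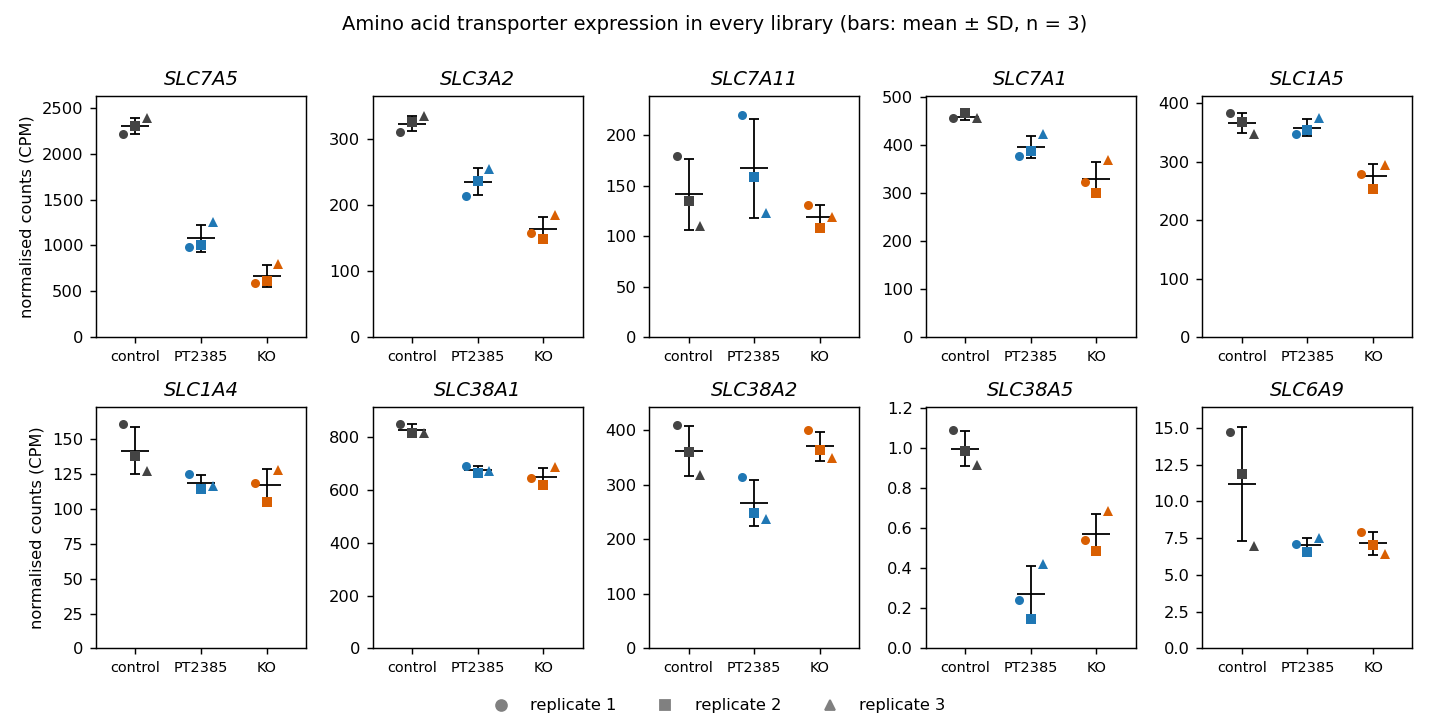
Normalised counts (CPM, from 0) of each transporter in the 9 libraries. Symbols are replicates 1, 2 and 3 of control, PT2385 and KO, and bars give the mean ± SD of n = 3. SLC7A5 and SLC3A2 fall in separate steps from control to PT2385 to KO, whereas SLC38A2 is lower upon PT2385 treatment and back at the control range in KO.

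SLC7A5 (ENSG00000103257, chromosome 16 from 87830023 to 87869507 on GRCh38) was the most abundant transporter. It reached 2221, 2301 and 2393 CPM in control, 982, 1005 and 1251 CPM upon PT2385 treatment and 589, 609.8 and 800.1 CPM in KO. The 3 groups did not overlap, and in each the highest value was that of replicate 3. The mean went from 2305 ± 86.3 CPM in control to 1079 ± 149 CPM with PT2385 and 666 ± 116 CPM in KO (SD, n = 3), which left 46.8% and 28.9% of the control level. The log2 fold change against control was -1.10 with PT2385 (standard error 0.0795, edgeR adjusted p = 2.65e-06) and -1.78 in KO (standard error 0.103, adjusted p = 3.27e-07). KO lay below PT2385 as well (log2 fold change -0.70, standard error 0.123, adjusted p = 0.00243), so the drug at this dose and time left more SLC7A5 RNA than the knockout did. In RNA from bulk cells, fewer cells with a transcript and less of it per cell cannot be told apart. An antisense transcript shares 271 exon bases with SLC7A5, and strandedness of counting is not stated, so its reads cannot be separated. Of the near-identical pseudogenes, SLC7A5P1 held between 31 and 72 counts per library and SLC7A5P2 held 0, against 7641 counts or more of SLC7A5 itself.

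SLC3A2 (ENSG00000168003, chromosome 11 from 62856004 to 62888880) showed the same order of groups in smaller steps. It was measured at 310.2, 325 and 334 CPM in control, 214, 236 and 255 CPM with PT2385 and 158, 149 and 185 CPM in KO. The groups did not overlap. PT2385 left 72.7% of the control mean (log2 fold change -0.46, standard error 0.0677, edgeR adjusted p = 0.000989) and KO 50.6% (-0.97, standard error 0.0807, adjusted p = 6.24e-06). The direct comparison gave -0.52 for KO against PT2385 (standard error 0.0944, adjusted p = 0.0028). For both subunits the calls held in all 3 comparisons when any single library was left out, and both fell short of a change of more than 1.5-fold (glmTreat) in KO against PT2385, as SLC3A2 did upon PT2385 treatment.

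The light chain fell further than the heavy chain. Counted per kb of exon, the ratio of SLC7A5 to SLC3A2 transcripts was 9.61, 9.50 and 9.62 in control, 6.16, 5.71 and 6.59 with PT2385 and 5.02, 5.51 and 5.81 in KO. All control values lay above all others, whereas PT2385 and KO overlapped. The ratio averaged 9.57 ± 0.067 in control, 6.15 ± 0.437 with PT2385 and 5.45 ± 0.398 in KO (SD, n = 3), with an exact two-sided permutation p of 0.1 for either group against control, the smallest possible, and 0.2 for KO against PT2385. SLC3A2 also carries SLC7A6, SLC7A7, SLC7A8, SLC7A10 and SLC7A11. Among these 6 light chains together, SLC7A5 made up 93.0 ± 0.772% of the transcripts per kb in control, 85.1 ± 2.90% with PT2385 and 81.7 ± 2.02% in KO. The control was again apart from the others, while replicate 3 of PT2385, at 88.3%, lay above both other PT2385 libraries. The summed light chains fell from 520.2 ± 15.2 CPM per kb to 266 ± 27.6 and 171 ± 25.7. Lengths here merge all annotated exons of a gene, so the heights of the ratio, share and sum depend on the annotation. SLC7A6OS, on the opposite strand, shares 3372 exon bases with SLC7A6, and its reads cannot be separated.

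**Figure D2:**
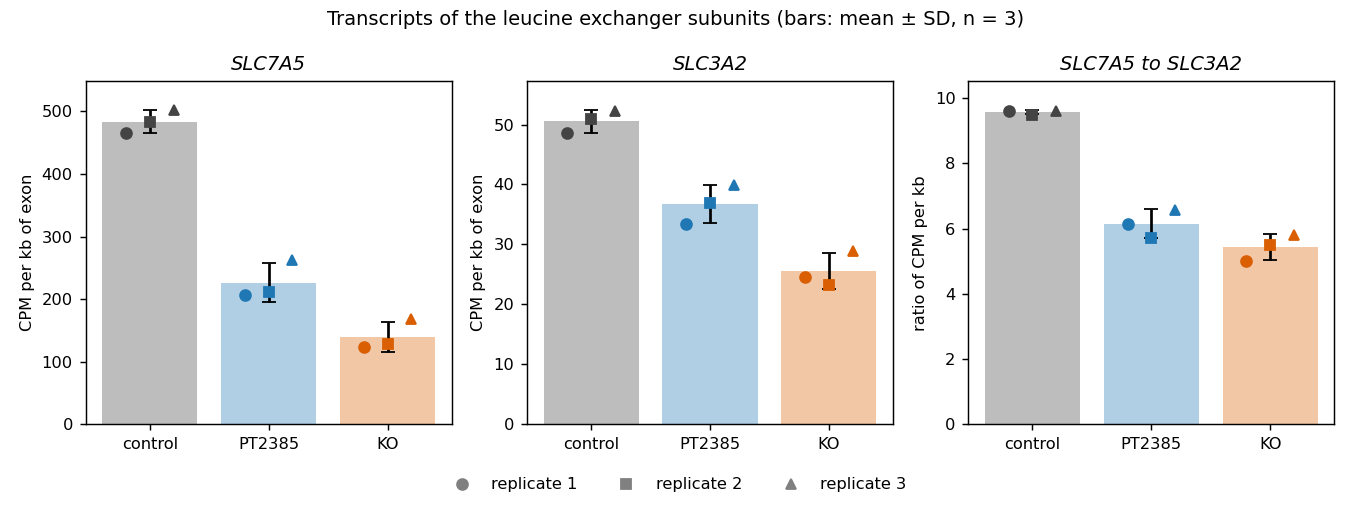
Transcripts of SLC7A5 and SLC3A2 in CPM per kb of exon, and their ratio, in the 9 libraries (axes from 0). Bars are means with SD of n = 3 and symbols are replicates. The ratio lies between 9.50 and 9.62 in control and at 6.59 or below in the other groups.

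The promoter stretches of the transporters that were lower in both PT2385 and KO are given below. RefSeq start sites (GRCh38.p14) were found for 9 of the 10 genes, 15 in all, and not for SLC7A11. Windows from 250 bases before to 50 after each start were searched on both strands for ACGTG and GCGTG, the core letters of the hypoxia response element, for CACGTG, which contains ACGTG on both strands, and for TGATGNAA, the letters of the composite C/EBP-ATF element bound by ATF4. CACGTG was found in 7.26% of 35116 promoter windows, ACGTG in 21.4%, GCGTG in 36.5% and TGATGNAA in 3.62%. Of the 15 windows of the transporters, 10 held GCGTG and 5 held ACGTG. TGATGNAA was found in 5 of the 15, 1 each for SLC3A2, SLC7A1, SLC38A1, SLC1A5 and SLC1A4, and CACGTG in 3, those of SLC7A5, SLC1A5 and SLC38A5. The windows of SLC38A2 and SLC6A9 held none of these letters. Where a gene has several starts, the stretch printed is from the window with TGATGNAA, 1 of 3 for SLC3A2 and 1 of 2 for SLC38A1. The windows not printed hold GCGTG in both cases for SLC3A2, and ACGTG and GCGTG for SLC38A1. The counts do not tell which start is used, and a match of letters is no evidence of binding. Each stretch is 150 bases of the strand of the gene, 5′ to 3′. Capitals mark every match in the stretch: CACGTG and the reverse complement of GCGTG in SLC7A5, GCGTG and TGATGNAA in SLC7A1, TGATGNAA in SLC38A1, and its reverse complement in SLC3A2.
SLC7A5 (chr16:87869582-87869731, minus strand): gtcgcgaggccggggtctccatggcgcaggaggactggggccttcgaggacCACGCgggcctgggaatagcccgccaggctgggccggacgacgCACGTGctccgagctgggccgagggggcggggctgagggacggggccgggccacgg
SLC3A2 (chr11:62881599-62881748, plus strand): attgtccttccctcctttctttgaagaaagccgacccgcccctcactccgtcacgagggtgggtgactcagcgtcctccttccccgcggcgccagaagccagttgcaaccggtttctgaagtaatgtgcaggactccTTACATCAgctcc
SLC7A1 (chr13:29595639-29595788, minus strand): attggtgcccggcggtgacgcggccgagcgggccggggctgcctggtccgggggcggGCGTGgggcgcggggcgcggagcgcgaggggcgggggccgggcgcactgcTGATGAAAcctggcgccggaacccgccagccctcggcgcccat
SLC38A1 (chr12:46266467-46266616, minus strand): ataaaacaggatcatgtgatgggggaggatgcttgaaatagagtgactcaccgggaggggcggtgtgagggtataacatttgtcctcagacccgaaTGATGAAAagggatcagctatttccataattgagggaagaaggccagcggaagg
The SLC7A5 stretch runs from 224 to 75 bases before the start, with CACGTG beginning 130 bases before it. In SLC38A1 the match spans the start itself, and in SLC7A1 and SLC3A2 it lies at bases 8 to 15 and 38 to 45 of the transcript.

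SLC7A11 (ENSG00000151012, chromosome 4 from 138164097 to 138242349) is the cystine carrier that feeds glutathione synthesis. In the main edgeR fit of each pair of groups it was not called, whereas SLC3A2, its heavy chain, was called in each. SLC7A11 was not tested against SLC3A2. Its values were 179.7, 135 and 110.2 CPM in control, 220.1, 159 and 123 CPM with PT2385 and 131, 108 and 119 CPM in KO. The groups overlapped, and replicate 1 was the highest of each group. The log2 fold change was 0.24 with PT2385 (standard error 0.195, edgeR adjusted p = 0.537), -0.24 in KO (standard error 0.145, adjusted p = 0.25) and -0.49 for KO against PT2385 (standard error 0.173, adjusted p = 0.0734). When replicate number was entered as a block, the difference upon PT2385 treatment passed the test (log2 fold change 0.23, adjusted p = 0.00728), and each PT2385 library was above the control of its number. Its adjusted p ran from 0.00728 to 1 over the fits tried, and without PT2385 replicate 1 the log2 fold change was -0.02. KO against control passed without control replicate 3 (-0.39, adjusted p = 0.044). KO against PT2385, where SLC3A2 stood at -0.52, passed without PT2385 replicate 3 (-0.67, adjusted p = 0.00586) and with the block (-0.46, adjusted p = 0.0098). The same differences shrank to -0.03 without control replicate 1 (adjusted p = 0.881) and to -0.24 without PT2385 replicate 1 (adjusted p = 0.212). SLC7A11-AS1, on the opposite strand, shares 865 exon bases with it.

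SLC7A1 (ENSG00000139514, chromosome 13 from 29509414 to 29595688), the carrier of cationic amino acids, fell by little and in all comparisons. It was measured at 455, 466 and 455 CPM in control, 378, 388 and 422 CPM with PT2385 and 322, 301 and 368 CPM in KO, with no overlap between groups. The log2 fold change was -0.22 with PT2385 (standard error 0.0566, edgeR adjusted p = 0.0374), -0.46 in KO (standard error 0.0741, adjusted p = 0.000742) and -0.26 for KO against PT2385 (standard error 0.0833, adjusted p = 0.0492). The call with PT2385 was lost without any 1 of control replicates 1, 2 and 3 and PT2385 replicates 1 and 2 (log2 fold change from -0.22 to -0.19, adjusted p from 0.0732 to 0.181), and with all 9 libraries in 1 model (adjusted p = 0.119, range over the fits tried 0.00328 to 1). The call in KO against PT2385 was lost without any 1 of PT2385 replicates 1, 2 and 3 and KO replicates 1 and 2 (-0.29 to -0.20, adjusted p from 0.0625 to 0.166). It was also lost with RLE size factors and with at least 10 counts in every library (adjusted p = 0.0561 and 0.0614, range over the fits tried 0.00589 to 1).

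SLC1A5 (ENSG00000105281, chromosome 19 from 46774883 to 46788594), the sodium-dependent glutamine carrier, separated KO from both other groups. Control libraries held 383, 368 and 348 CPM and PT2385 libraries 347, 354 and 375 CPM, which overlapped. KO libraries held 279, 254 and 294 CPM and lay below all 6. Its log2 fold change was -0.03 with PT2385 (standard error 0.0583, edgeR adjusted p = 0.796), -0.40 in KO (standard error 0.0696, adjusted p = 0.00131) and -0.38 for KO against PT2385 (standard error 0.0725, adjusted p = 0.0038). These calls held when any single library was left out. A lncRNA on the other strand shares 780 exon bases with SLC1A5.

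SLC1A4 (ENSG00000115902, chromosome 2 from 64988477 to 65023865), a carrier of serine, alanine and cysteine, was at 160.5, 138 and 127 CPM in control, 125, 114 and 116 CPM with PT2385 and 119, 105 and 128 CPM in KO. The PT2385 libraries lay just below the control, and KO overlapped it. The log2 fold changes against control were alike, -0.26 with PT2385 (standard error 0.084, edgeR adjusted p = 0.0863) and -0.26 in KO (standard error 0.0967, adjusted p = 0.0604), and neither passed. With the block PT2385 passed (-0.26, adjusted p = 0.00526, range over the fits tried 0.00526 to 1), as it did without PT2385 replicate 1 (-0.31, adjusted p = 0.0479). KO passed without control replicate 3 (-0.34, adjusted p = 0.0359) and without KO replicate 3 (-0.33, adjusted p = 0.0124), and in DESeq2 (adjusted p = 0.043, range over the fits tried 0.00328 to 1). Without control replicate 1 the values were -0.17 with PT2385 (adjusted p = 0.312) and -0.16 in KO (adjusted p = 0.242). KO against PT2385 gave -0.02 (standard error 0.0856, adjusted p = 0.907).

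Among the sodium-coupled SLC38 carriers, SLC38A1 (ENSG00000111371, chromosome 12 from 46183063 to 46270017), which takes up glutamine, fell to a similar level in both groups. It was measured at 852, 815 and 817 CPM in control, 692, 663 and 674 CPM with PT2385 and 645, 618 and 687 CPM in KO. All control libraries lay above all others, and PT2385 and KO overlapped. The log2 fold change was -0.30 with PT2385 (standard error 0.0509, edgeR adjusted p = 0.00334) and -0.34 in KO (standard error 0.0593, adjusted p = 0.00134), and both calls held when any single library was left out. KO against PT2385 was not called, at -0.06 (standard error 0.0637, adjusted p = 0.572).

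SLC38A2 (ENSG00000134294, chromosome 12 from 46358188 to 46372773), the carrier of small neutral amino acids that cells raise on amino acid shortage, was the member whose effects differed in the other direction. It stood at 409, 360.0 and 318 CPM in control, 315, 249 and 237 CPM with PT2385 and 401, 364 and 349 CPM in KO. PT2385 libraries lay below all control and all KO libraries, while KO and control overlapped, and replicate 1 was the highest of each group. The log2 fold change was -0.45 with PT2385 (standard error 0.11, edgeR adjusted p = 0.0292) and 0.04 in KO (standard error 0.0899, adjusted p = 0.755). The direct comparison gave 0.47 for KO against PT2385 (standard error 0.106, adjusted p = 0.00988), so the effects of drug and knockout on this gene differed. The call with PT2385 was lost without control replicate 1 (-0.35), control replicate 2 (-0.45) or PT2385 replicate 2 (-0.40), with adjusted p from 0.111 to 0.138. The call of the difference was lost without PT2385 replicate 2 (0.43, adjusted p = 0.0539) or KO replicate 1 (0.41, adjusted p = 0.0541).

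The last pair was weakly expressed. SLC38A5 (ENSG00000017483, chromosome X from 48458537 to 48470260), a glutamine carrier, had 13, 12 and 11 counts in control, 3, 2 and 6 counts with PT2385 and 7, 7 and 10 counts in KO, with no overlap between groups. From the summed counts the PT2385 level was 0.275 of control (95% exact counting interval 0.126 to 0.552) and the KO level 0.574 of it (0.328 to 0.989). These intervals cover counting error alone. The fitted log2 fold change was -1.83 with PT2385 (standard error 0.444, edgeR adjusted p = 0.0261) and -0.78 in KO (standard error 0.345, adjusted p = 0.114). The gene passed the filter on low counts only through the control, where it is high, and not in KO against PT2385. Its PT2385 call was lost in DESeq2 (-1.88, adjusted p = 0.0967) and without any 1 library but PT2385 replicate 3 (-1.89 to -1.55, adjusted p from 0.0552 to 0.137). SLC6A9 (ENSG00000196517, chromosome 1 from 43991500 to 44031467), the glycine carrier GlyT1, was at 14.7, 11.8 and 6.99 CPM in control, 7.07, 6.55 and 7.53 CPM with PT2385 and 7.95, 7.04 and 6.44 CPM in KO. Control replicate 3 was at the level of the other groups, whereas the other control libraries lay above them. The log2 fold change was -0.67 with PT2385 (standard error 0.221, edgeR adjusted p = 0.0978) and -0.64 in KO (standard error 0.231, adjusted p = 0.0592), and 0.01 for KO against PT2385 (adjusted p = 0.967). With the block PT2385 passed (-0.64, adjusted p = 0.0258, range over the fits tried 0.000759 to 1). Without control replicate 3 both passed, at -0.91 (adjusted p = 0.00548) and -0.89 (adjusted p = 0.00384). Without control replicate 1 they were -0.43 (adjusted p = 0.351) and -0.39 (adjusted p = 0.252). DESeq2 called KO against control (adjusted p = 0.0303, range over the fits tried 0.000763 to 1). CCDC24, on the opposite strand, shares 413 exon bases with SLC6A9.

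**Figure D3:**
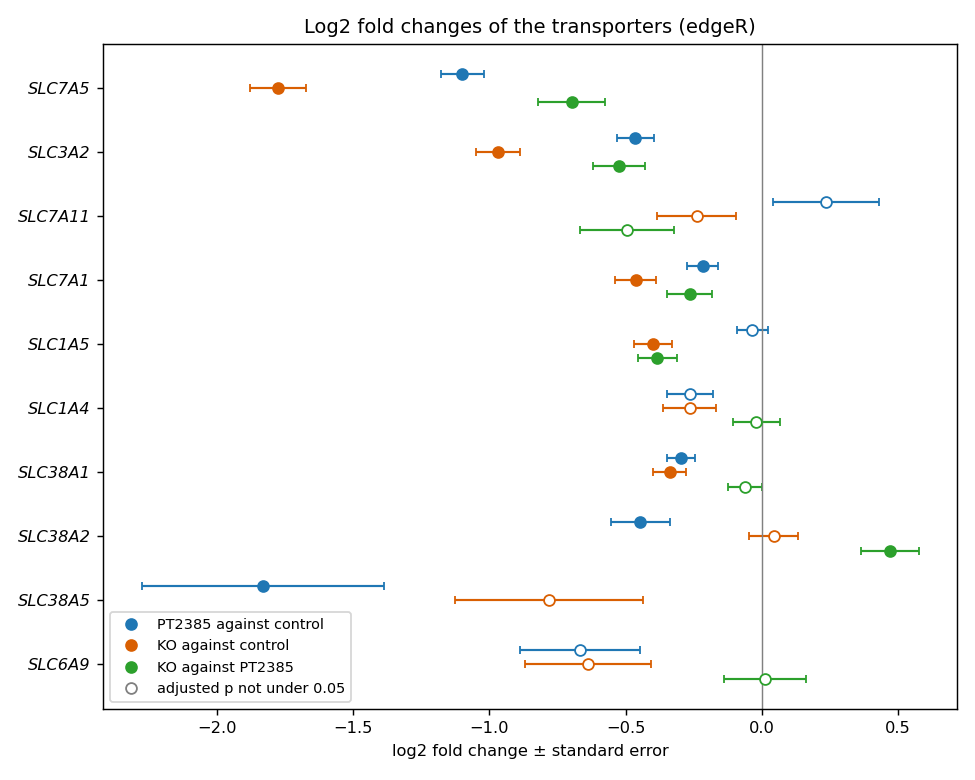
Log2 fold change ± standard error of each transporter in the 3 comparisons (edgeR). Filled symbols have an adjusted p under 0.05. SLC7A5 and SLC3A2 lie left of 0 in all comparisons, and SLC38A2 is the sole filled symbol to the right, at 0.47 for KO against PT2385.

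Levels per kb of exon use the merged length of all annotated exons, which need not be that of the transcript in use. The order and rank of genes by this level are therefore approximate. In control SLC7A5 was highest at 484 ± 18.1 CPM per kb, followed by SLC1A5 (109.9 ± 5.22), SLC38A1 (82.7 ± 2.07) and SLC7A1 (59.7 ± 0.791). Next were SLC38A2 (55.7 ± 6.96), SLC3A2 (50.5 ± 1.88) and SLC1A4 (20.4 ± 2.45). The lowest were SLC7A11 (14.7 ± 3.65), SLC6A9 (2.13 ± 0.741) and SLC38A5 (0.248 ± 0.0219). SLC7A1 and SLC38A2, SLC38A2 and SLC3A2, and SLC1A4 and SLC7A11 overlapped between replicates. SLC7A5 ranked 22 among 58207 genes by this level in control, 70 upon PT2385 treatment and 127 in KO, and it remained the highest of the 10 in all groups. In KO the order changed in the middle, where SLC38A2 (57.0 ± 4.12 CPM per kb) stood above SLC7A1 (43.0 ± 4.45) and SLC3A2 had come down to 25.6 ± 2.95. Of all normalised counts of the 10 genes, SLC7A5 held 46.7 ± 2.09% in control, 32.6 ± 3.20% with PT2385 and 24.6 ± 2.53% in KO. The 10 together fell from 4939 ± 40.8 CPM to 3306 ± 145 and 2701 ± 215 CPM.

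Replicates of the same number resembled each other in part of the transporters. Across all 9 libraries and with group in the model, SLC7A5, SLC7A11 and SLC38A2 (3 of the 10) differed between replicate numbers (edgeR, joint test of both number terms, adjusted p = 0.0255, 0.0216 and 0.0166), where 2.61% of 15655 tested genes did. From replicate 1 to 3 the log2 CPM of SLC7A11 differed by -0.70 in control, -0.84 with PT2385 and -0.14 in KO, and that of SLC38A2 by -0.36, -0.41 and -0.20. SLC7A5 went the other way, by 0.11, 0.35 and 0.44. The labels do not say what the numbers mark. Without control replicate 1 or PT2385 replicate 1 none of the 10 passed (0 at an adjusted p under 0.05, 4 and 5 at an unadjusted p under 0.05), and SLC7A5 alone passed without control replicate 3. SLC7A5 was lost without PT2385 replicate 2, PT2385 replicate 3, KO replicate 1 or KO replicate 3, which left 2 of the 10, and genes called in all ranged from 65 to 900 with a single library left out, against 409 with all 9. The spread shared by number enters the standard errors of fold changes without the block.

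**Figure D4:**
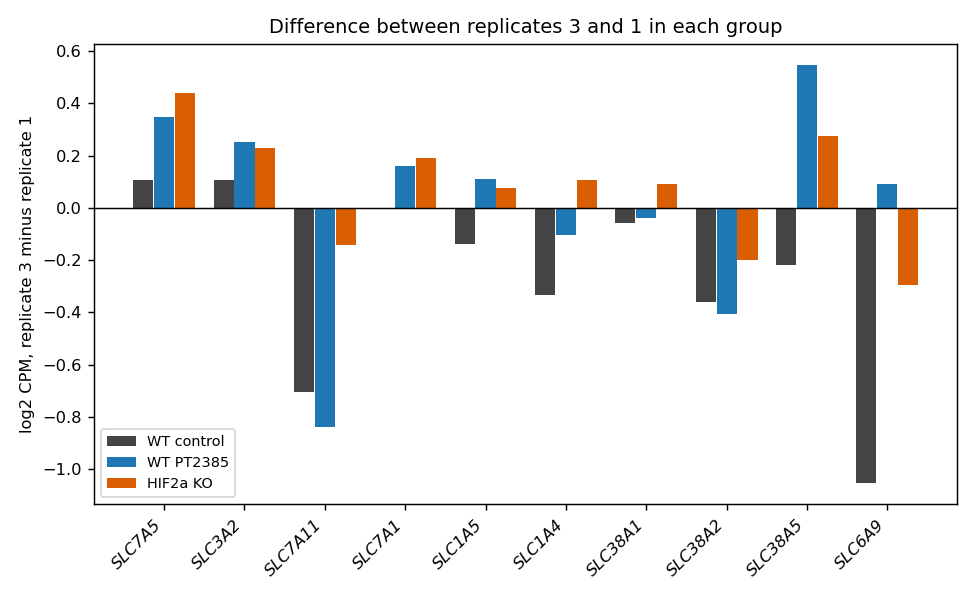
Difference in log2 CPM between replicates 3 and 1 of each group for the 10 transporters. Bars are single differences within a group, with no error. SLC7A11 and SLC38A2 are below 0 in all groups, SLC7A5 and SLC3A2 above 0 in all, and SLC6A9 is far below 0 in control at -1.05.

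Some genes followed the pattern of single transporters over the 9 libraries. Among 9550 other tested genes with a mean of at least 10 CPM, the highest Pearson correlations of log2 CPM with SLC7A5 were those of PLEKHA2 (r = 0.996), RAB42 (0.995) and AFF3 (0.993). With SLC3A2 they were those of CENPA (0.991), AKAP12 (0.991) and JPT2 (0.990). For the weakly counted SLC38A5, itself under 10 CPM and so set beside 9551 genes, they were SH3BP2 (0.961), IL1RAP (0.953) and TGM2 (0.947). PLEKHA2 averaged 259 CPM in control, 148 with PT2385 and 97.1 in KO, and TGM2 averaged 581, 284 and 451 CPM. The 9 points share 3 groups, so these values describe the order of groups and libraries, and carry no p.

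The other amino acid transporters, a list of 39 genes, were mostly silent, with 14 tested upon PT2385 treatment, 14 in KO against control and 15 in KO against PT2385. Their median log2 fold changes were 0.03, -0.14 and -0.14, beside 0.00 over all tested genes in each comparison. The tested members of the 10 had medians of -0.37, -0.43 and -0.26, the last over 9 genes without SLC38A5. The first medians include SLC38A5, which was tested only through its level in control. With at least 10 counts required in every library, which leaves SLC38A5 out, they were -0.30 with PT2385 and -0.40 in KO against control. The median for KO against PT2385 was -0.16 over all 10, both without the filter on low counts and with all 9 libraries in 1 model. SLC6A6, the taurine carrier, moved like SLC7A5. It held 422, 339 and 329.9 CPM in control, 194, 182 and 189.6 CPM with PT2385 and 115, 141 and 101 CPM in KO, with no overlap, and log2 fold changes of -0.95, -1.60 and -0.66 in the 3 comparisons (edgeR adjusted p = 1.9e-05, 3.31e-06 and 0.00128). Of the tested genes 35.7%, 28.6% and 33.3% were called in the 3 comparisons, beside 7.7%, 30.1% and 18.8% of all tested genes. Upon PT2385 treatment 3 of the 14 fell and 2 rose, and 4 fell and 3 rose with the block. With a library left out, 1 to 4 fell and 0 to 2 rose with PT2385, 2 to 4 fell and 0 to 2 rose in KO, and 2 to 5 were lower and 0 to 1 higher in KO against PT2385. SLC36A4, a lysosomal amino acid carrier, fell (-0.42, adjusted p = 0.0251) and SLC7A7, another partner of SLC3A2, rose (0.48, adjusted p = 0.0173), and both calls were lost without control replicate 1, control replicate 3 or PT2385 replicate 2 (-0.51 to -0.32 and 0.39 to 0.56 with a library left out). The other 2, SLC7A2 (-0.87) and SLC43A2 (0.72), had means under 100 counts and were picked out after their values were seen. In KO 4 fell and 0 rose, namely SLC6A6, SLC36A4 (-0.32, adjusted p = 0.0235), SLC7A6 (-0.31, adjusted p = 0.04) and again SLC7A2 (-4.25). SLC7A2 had 94, 82 and 159 counts in control, 57, 61 and 87 with PT2385 and 1, 10 and 9 in KO. In both comparisons with KO it passed the filter on low counts only through the other group, where it is high. SLC36A4 was lost without control replicate 1 or 3 or KO replicate 1 or 2, and SLC7A6 without any 1 library but KO replicate 3 (-0.40 to -0.25 and -0.46 to -0.24). KO lay below PT2385 in 5 of 15, with SLC43A2 (-0.61), SLC7A7 (-0.46) and SLC38A10 (-0.35) beside SLC6A6 and SLC7A2 (adjusted p = 0.0125, 0.0325 and 0.00824 for these 3). SLC43A2 and SLC38A10 were lost without PT2385 replicate 2 (-0.55 and -0.32), and SLC7A7 without PT2385 replicate 1 or 2 or KO replicate 2 or 3 (-0.56 to -0.33).

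Amino acids signal to mTORC1 through the Rag GTPases and their regulators, and 28 of 30 genes of this machinery were tested. In the 3 comparisons 10.7%, 32.1% and 25% of them were called, beside 7.7%, 30.1% and 18.8% of all tested genes, so the share in KO is near that of all genes. When any library was dropped, 2 to 3 fell and 0 to 1 rose with PT2385, 3 fell and 4 to 7 rose in KO, and 0 to 1 were lower and 3 to 8 higher in KO against PT2385. Upon PT2385 treatment 2 fell and 1 rose (4 and 1 with the block), with a median log2 fold change of -0.06. DDIT4, an inhibitor of mTORC1 that hypoxia induces, was at 469.9, 418 and 320.0 CPM in control, 87.6, 64.8 and 41.8 CPM with PT2385 and 89.6, 105 and 65.2 CPM in KO. Its log2 fold change was -2.64 with PT2385 and -2.21 in KO (edgeR adjusted p = 6.59e-06 and 3.07e-06). RRAGA, a Rag GTPase, fell with PT2385 (-0.60, adjusted p = 0.000344), and CASTOR2, which relates to the arginine sensor, rose (0.41, adjusted p = 0.0411), though its call was lost without any 1 library but control replicate 1 (0.35 to 0.54). In KO 3 fell and 6 rose, with a median of 0.13. CASTOR2 (0.72, adjusted p = 0.00348), the Rag GTPase RRAGC (0.62, adjusted p = 0.00429) and the leucine sensor relative SESN1 (0.49, adjusted p = 0.0328) were the largest rises, of which SESN1 was lost without control replicate 1 or 2 or KO replicate 1 or 2 (0.38 to 0.59). KO exceeded PT2385 in 6 genes and was lower in 1, with RRAGC (0.70), FNIP2 (0.59), BMT2 (0.47) and FLCN (0.33) largest (adjusted p = 0.00485, 0.00248, 0.0136 and 0.012). FLCN was lost without KO replicate 1 (0.30 to 0.38).

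Of 26 genes of the ATF4 response to amino acid shortage, 24 were tested upon PT2385 treatment, with 4 lower and 0 higher, and 25 in each of the others. With the block 6 were lower and 2 higher, adding ATF4 (-0.20), EIF2AK3 (-0.19), ATF5 (0.39) and ALDH18A1 (0.17), which were named after their values were seen. The shares called, 16.7%, 36.0% and 20.0%, stand beside 7.7%, 30.1% and 18.8% of all tested genes. With a library left out, 2 to 4 fell and 0 to 1 rose with PT2385, 2 to 10 fell and 2 to 5 rose in KO, and 1 to 3 were lower and 2 to 4 higher in KO against PT2385. TRIB3, a pseudokinase that ATF4 induces, was at 254, 241 and 206 CPM in control, 89.3, 81.7 and 71.8 CPM with PT2385 and 73.9, 81.8 and 49.2 CPM in KO. Its log2 fold change was -1.53 with PT2385 and -1.76 in KO (edgeR adjusted p = 7.29e-07 and 8.44e-06). STC2, a secreted glycoprotein, fell with PT2385 (-0.86, adjusted p = 6.52e-05), as did PPP1R15A (-0.40, adjusted p = 0.0475), which was lost without any 1 library but PT2385 replicate 3 (-0.54 to -0.34), and ATF3 (-0.78), which had a mean under 100 counts and was picked out after its values were seen. In KO 6 fell and 3 rose. The kinase GCN2 (EIF2AK4), which senses uncharged tRNA, fell (-0.42, adjusted p = 0.0006), STC2 (-0.40, adjusted p = 0.0498) and CEBPG (-0.31, adjusted p = 0.0472) fell with calls that were lost without control replicate 1 or 2 or KO replicate 1 or 2 (-0.55 to -0.25 and -0.42 to -0.22). KO against PT2385 gave 2 lower and 3 higher genes, with PPP1R15A at 0.68 (adjusted p = 0.00634), EIF2AK4 at -0.46 (0.00185), STC2 at 0.44 (0.0355) and VLDLR at -0.33 (0.034). The remaining gene, NUPR1 (3.06), had a mean under 100 counts and was picked out after its values were seen. It had 8, 6 and 1 counts in control, 6, 5 and 4 with PT2385 and 41, 65 and 28 in KO. NUPR1 therefore passed the filter on low counts only through KO, where it is high, in both comparisons with KO. STC2 and VLDLR were lost without any 1 library but KO replicate 2 (0.30 to 0.60 and -0.44 to -0.28). The medians were -0.07, -0.16 and -0.02.

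Of 17 genes that use cystine for glutathione and related antioxidants, 4 were up-regulated and 0 down-regulated against control in each group. The shares called were 23.5% with PT2385, 23.5% in KO and 11.8% in KO against PT2385, beside 7.7%, 30.1% and 18.8% of all tested genes. With a library left out, 2 to 4 rose and 0 fell with PT2385, 2 to 5 rose and 0 to 3 fell in KO, and 1 to 2 were higher and 1 lower in KO against PT2385. GSR, which reduces oxidized glutathione, held 89.5, 88.8 and 90.7 CPM in control, 116, 123 and 135 CPM with PT2385 and 117, 136 and 113 CPM in KO, with log2 fold changes of 0.47 and 0.46 (edgeR adjusted p = 0.000792 and 0.000884). The thioredoxin reductase gene TXNRD1 was at 0.34 and 0.19 (adjusted p = 0.00649 and 0.0237), and was lost without control replicate 2 upon PT2385 treatment (0.28 to 0.38 with a library left out) and without control replicate 1 or 2 or KO replicate 1 in KO (0.15 to 0.22). NQO1 (0.30) and GGT1 (0.25) completed the PT2385 set (adjusted p = 0.0126 and 0.0414). NQO1 was lost without control replicate 3 or PT2385 replicate 2 (0.26 to 0.34), and GGT1 without control replicate 1, 2 or 3 or PT2385 replicate 2 (0.20 to 0.29). In KO the lipid peroxide reductase GPX4 rose by 0.49 (adjusted p = 0.000487), and HMOX1 by 0.72 (adjusted p = 0.0282), the latter lost without control replicate 3 or KO replicate 1 or 2 (0.53 to 0.92). KO exceeded PT2385 for GPX4 (0.45, adjusted p = 0.00149) and was lower for NQO1 (-0.36, adjusted p = 0.00485). The medians were 0.03, 0.08 and -0.03.

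Enzymes of glutamine use showed no call upon PT2385 treatment, with 0 of 12 in edgeR and 0 in DESeq2. At an unadjusted p under 0.05 there were 3 and 2. Of all tested genes edgeR called 7.7% in that comparison. With the block 2 rose, SLC25A22 (0.29) and GFPT1 (0.15), named after their values were seen, and 0 to 1 rose with a library left out. In KO GFPT1, the entry to hexosamine synthesis, rose (0.38, edgeR adjusted p = 0.000306). KO against PT2385 gave 3 lower and 2 higher genes, 41.7% beside 18.8% of all tested genes, with 1 to 3 and 0 to 2 when a library was left out. They were GPT2 (-0.39), GOT2 (-0.32), CTPS1 (-0.32), GLUD1 (0.26) and GFPT1 (0.22), with adjusted p of 0.00436, 0.00993, 0.0496, 0.0152 and 0.0328. GFPT1 was named here after its values were seen. GPT2 lost its call in 2 of 16 alternatives (-0.42 to -0.33 with a library left out). GOT2 was lost without PT2385 replicate 2 or KO replicate 1 (-0.36 to -0.25), CTPS1 without PT2385 replicate 2 or 3 or KO replicate 1 or 2 (-0.42 to -0.22) and GLUD1 without PT2385 replicate 1 or 2 or KO replicate 2 (0.24 to 0.28). Of 10 tested enzymes of leucine and glycine use, 0 were called upon PT2385 treatment in edgeR or DESeq2, beside 7.7% of all tested genes in edgeR. An unadjusted p under 0.05 was reached by 0 in either. The block also called 0. In KO and in KO against PT2385 the share called was 30.0%, beside 30.1% and 18.8% of all tested genes. Leaving out a library gave 0 to 1 lower in either, and 1 to 3 and 1 to 2 higher. In KO SHMT1 (0.52) and DLD (0.38) rose and BCKDK (-0.27), the kinase that restrains leucine breakdown, fell (adjusted p = 0.0172, 0.000747 and 0.0173). SHMT1 was lost without control replicate 2 or 3 and was lowest without KO replicate 2 (0.31 to 0.64), and BCKDK without control replicate 2 or KO replicate 1 (-0.31 to -0.24). The same 3 genes differed between KO and PT2385, at 0.48, 0.33 and -0.31 (adjusted p = 0.0334, 0.00945 and 0.0268). Of these SHMT1 was lost without any 1 library but KO replicate 3 (0.28 to 0.61) and BCKDK without PT2385 replicate 1 or 2 or KO replicate 1 (-0.35 to -0.27). The medians were 0.03, -0.05 and -0.11 for glutamine use and 0.02, -0.04 and -0.08 for leucine and glycine use.

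**Figure D5:**
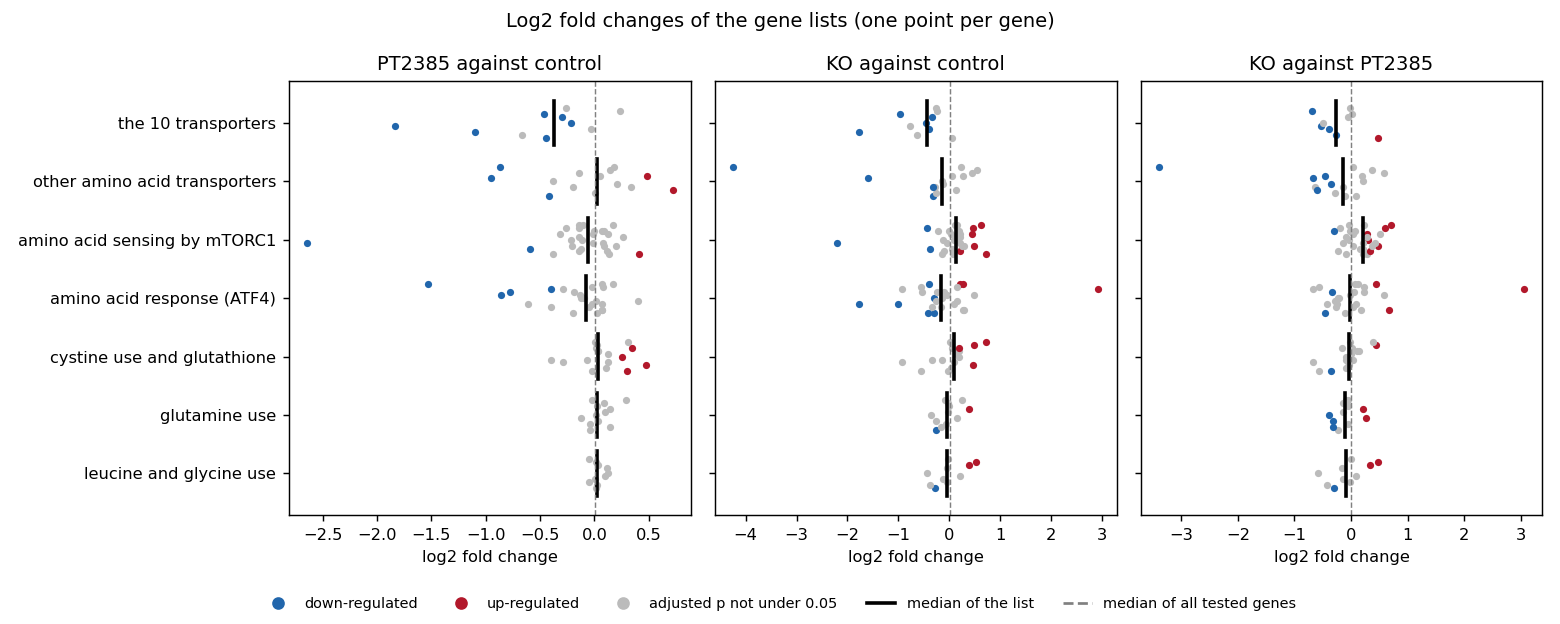
Log2 fold changes of the tested genes of each list in the 3 comparisons, 1 point per gene, blue and red where the adjusted p is under 0.05. Black bars are list medians and dashed lines the median over all tested genes. The tested members of the 10 transporters have medians of -0.37, -0.43 and -0.26, the last over 9 genes. The other lists lie between -0.16 and 0.21. With SLC38A5 included, in fits not drawn here, the last median of the transporters was -0.16. Without SLC38A5, with at least 10 counts in every library and also not drawn, the first were -0.30 and -0.40.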

How the data were processed

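RNA was sequenced from 9 libraries of 786-0 cells, 3 each of WT control, WT with PT2385 and HIF2a KO. As described by the authors, reads were trimmed with cutadapt, aligned with STAR to GRCh38 and counted per gene with featureCounts, and the deposited values are raw counts without normalization. Versions, annotation release and strandedness are not given in the sources used here. Gene symbols, positions and exon lengths came from GENCODE 44, which matched 58207 of 58735 identifiers. The exon length of a gene is that of all its annotated exons merged. Each pair of groups was fitted on its own with edgeR 4.0.16 in R 4.3.3 (TMM, filterByExpr with a minimum of 10 counts, quasi-likelihood F test, Benjamini-Hochberg over all tested genes, called at adjusted p under 0.05), and DESeq2 1.42.0 served as alternative. The scripts were tested on simulated data. CPM use TMM factors of the 9 libraries, and log2 CPM a prior count of 2. Members and lists were chosen with earlier results of these data known, and the lists share a few genes. Named genes are the 10 members, EPAS1, the SLC7A5 pseudogenes, up to 4 called genes per list and comparison with the largest log2 fold change at a mean of at least 100 counts, and the 3 genes most correlated with each of the 3 members with the largest absolute log2 fold change in KO against control, called or not. The light chain ratio, the promoter search and the counting intervals were added after the values were seen. Same-numbered libraries deviated together between control and PT2385 (correlations of deviations from the group means over 9551 genes 0.464, 0.144 and 0.445), so there the numbers were taken to pair the samples. The pairing comes from the data alone, as the labels give numbers and no meaning. Alternatives were other scalings and filters, a block for the replicate number, all libraries in 1 model, a stricter threshold, glmTreat for changes beyond 1.5-fold, and fits with each library dropped in turn.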

Additional observations from a re-analysis of the deposited data

How the results depend on the processing

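No call of the 10 transporters changed direction. With TMM, RLE, upper-quartile or total-count scaling the median of all tested genes stayed within 0.03 of 0 on the log2 scale. Over the alternatives 390 of 462 fold changes of transporters kept their direction and side of the threshold, 41 lost a call, 24 gained one and 7 changed sign. Those 7 were never called, and each arose without 1 library. With a library left out, SLC7A11 ranged from -0.0159 to 0.44 upon PT2385 treatment, SLC38A2 from -0.0429 to 0.14 in KO against control, and SLC1A4 from -0.0891 to 0.0586 and SLC6A9 from -0.0684 to 0.0804 in KO against PT2385. Of 912 fold changes of other named genes, 172 lost a call and 0 changed sign. At an adjusted p under 0.01, genes and transporters called were 516 and 3 upon PT2385 treatment, 2788 and 5 in KO against control, 1657 and 4 in KO against PT2385 and 56 and 0 for the replicate number. Against a 1.5-fold change (glmTreat) they were 172 and 1, 882 and 2, and 528 and 0, the last with 0 transporters at an unadjusted p under 0.05, and 5 called by DESeq2. A stricter threshold and a minimum fold change call fewer genes by construction. Without the filter on low counts genes and transporters called were 1701 and 9 upon PT2385 treatment, 5216 and 8 in KO against control, 3606 and 6 in KO against PT2385 and 1552 and 4 for the replicate number. DESeq2 called 5, 7, 5 and 3 transporters among 1072, 3972, 2612 and 442 genes called. With all 9 libraries in 1 model edgeR called 5, 7 and 5 transporters among 953, 4595 and 3431 genes in the comparisons of groups. With the replicate number as a block, 2305 genes and 9 transporters were called upon PT2385 treatment. SLC7A11, SLC1A4 and SLC6A9 were added there, and no other call of a transporter changed. Between KO and the WT groups the libraries share only a number (same-number correlations 0.322, 0.0588 and 0.495 with control and 0.356, 0.0949 and 0.418 with PT2385). There the block gave 5501 and 3783 genes in place of 4566 and 2897, adding SLC1A4 and SLC6A9 in KO against control and SLC7A11 in KO against PT2385. KO replicate 2 did not correlate best with its own number. With a library left out, genes called ranged from 574 to 1451 upon PT2385 treatment, 3344 to 5094 in KO against control, 1836 to 3190 in KO against PT2385 and 65 to 900 for the replicate number. Transporters called ranged from 3 to 6, 5 to 8, 3 to 5 and 0 to 3. The causes of these differences were not tested. SLC38A5 had 2 to 13 counts per library and SLC6A9 84 to 175.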

Other observations

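Of 102 tested genes of the lists around the transporters, 9 (8.82%) also differed between replicate numbers. Over all 15655 tested genes 2.61% did, and genes called ranged from 65 to 900 with a library left out, against 409 with all 9. In the model with group and replicate number over all 9 libraries, SLC38A6, DDIT4, TRIB3 and HMOX1 passed the joint test of both number terms (edgeR adjusted p = 0.0314, 0.00965, 0.0331 and 0.0331), as did ATF5, RPTOR and CD44 (adjusted p = 0.0166, 0.0425 and 0.047). The fitted log2 difference of replicate 3 from replicate 1, which was not tested by itself, was -0.55, -0.68, -0.39 and -0.61 in the first set and 0.53, 0.23 and 0.29 in the second. SESN2, an inhibitor of mTORC1 in the absence of leucine, stood at -0.37 and DBT, a subunit of the enzyme that breaks down branched-chain keto acids, at -0.32 (joint test, adjusted p = 0.0491 and 0.0478). SLC7A11 and SLC38A2 had the same sign as the first set and SLC7A5 that of the second. These genes were picked out after their values were seen, and the labels do not say what the replicate numbers mark.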
